A study of Homo sapiens with 12 samples.

Results

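RNA of RPE1 cells, an immortalised line of human retinal pigment epithelium, was compared between cells given doxorubicin together with ferrostatin-1 and cells given doxorubicin alone. The comparison took all 8 treated libraries of the 12 in the series, 4 in each arm, by their labelled treatment, and described every gene that could be tested. DOX+F cells received 50 nM doxorubicin with 5 µM ferrostatin-1, which was given again at 48 h. DOX cells received 50 nM doxorubicin without ferrostatin-1. CTRL cells received the solvent DMSO, and their 4 libraries serve here as the level without either compound. All 3 groups are wild-type cells of this 1 line, treated from plating for 72 h. Ferrostatin-1 was never given without doxorubicin, so every change described is one in doxorubicin-treated cells. Whether the replicates were separate cultures is not stated, so the p-values measure the spread between these libraries, which may be technical in part.

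Doxorubicin, an anthracycline, locks topoisomerase II onto DNA and breaks it, and at low dose it stops cells from dividing. Ferrostatin-1 is an aromatic amine that traps lipid radicals and so stops ferroptosis, an iron-dependent death in which the phospholipids of membranes are oxidised. Cells hold ferroptosis back mainly with the glutathione peroxidase GPX4, which is fed by cystine uptake, and with lipid-soluble antioxidants. Cells that leave the cell cycle after DNA damage often secrete cytokines, proteases and growth factors, the senescence-associated secretory phenotype (SASP). The aryl hydrocarbon receptor, a transcription factor switched on by many aromatic compounds, raises its own set of detoxifying enzymes when bound.

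Library totals were 20243458 to 24879198 counts in DOX+F, 17980433 to 20607019 in DOX and 17523920 to 19650696 in CTRL. Levels are CPM, counts relative to the TMM-scaled size of the library. Where a library had 0 counts, counting error alone left room for at most 0.124 to 0.154 CPM in DOX+F, 0.150 to 0.172 CPM in DOX and 0.143 to 0.160 CPM in CTRL. Mitochondrially encoded genes gave 3.74% ± 0.216 of the counts in DOX+F, 3.97% ± 0.0861 in DOX and 2.91% ± 0.123 in CTRL (SD, n = 4 each). Of 21599 genes, 13340 had enough counts to be tested. In a principal component analysis of the 8 treated libraries, the first component held 23.4% of the variance and had all 4 DOX+F libraries on one side, at 12.3 to 16.8, and all 4 DOX libraries on the other, at -17.4 to -10.3.

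Ferrostatin-1 changed a small part of the transcriptome of doxorubicin-treated cells, and the largest falls were much larger than the largest rises among well-counted genes. In the edgeR quasi-likelihood test, 753 genes (5.64% of those tested) were called at an adjusted p below 0.05. Of these, 315 rose (2.36%) and 438 fell (3.28%) in DOX+F. Against a fold of 1.2, 159 genes (1.19%) passed, 49 higher and 110 lower. The arms did not overlap for 1492 genes (11.2%), among them 697 of the 753 called. For scale, DOX against CTRL called 8956 genes (67.1%) and DOX+F against CTRL 8970 (67.2%). These comparisons share libraries, so their values are only set side by side below. In bulk RNA, a change within cells cannot be told apart from a change in which cells are present, nor fewer cells of a kind from less RNA per cell. Levels below carry the SD over the 4 libraries of a group, and log2 fold changes, DOX+F minus DOX unless another pair is named, carry a standard error.

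Most called changes were small. The median log2 fold change was 0.29 among genes that rose and -0.35 among genes that fell in DOX+F, and over all tested genes the 5th and 95th percentiles were -0.36 and 0.31. A fall of at least 2-fold was called for 39 genes and a rise of at least 2-fold for 14. Of those 14, 9 averaged under 2 CPM over the treated libraries and 3 had no count in any DOX library, whereas 15 of the 39 falls averaged under 2 CPM. The share of genes called grew with the level, with 1.27% below 1 CPM and 11.4% at 100 CPM or more. Of 12620 protein-coding genes tested, 306 rose and 423 fell.

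**Figure D1:**
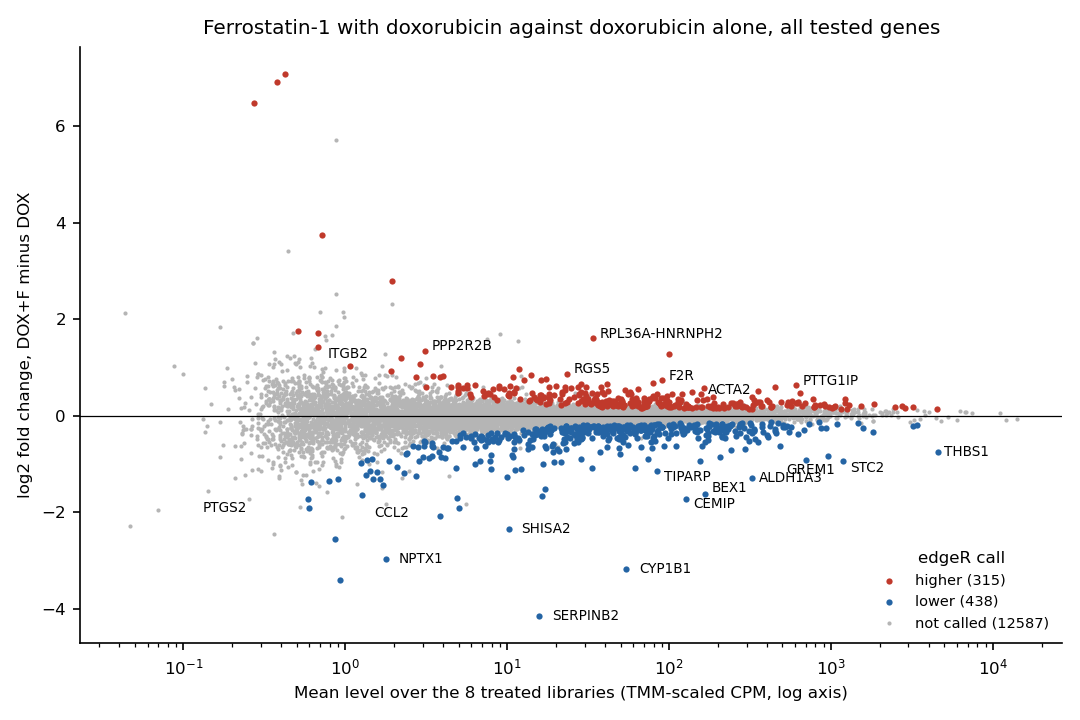
Log2 fold change of DOX+F minus DOX (vertical axis) against the mean level over the 8 treated libraries in CPM (log axis) for the 13340 tested genes, with the 315 called higher in red, the 438 called lower in blue and the rest in grey. The labelled falls reach -4.16 (SERPINB2) and -3.17 (CYP1B1), while the highest red points lie below 1 CPM, 3 of them without a count in any DOX library.

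Targets of the aryl hydrocarbon receptor included the largest falls among genes of at least 2 CPM, SERPINB2 and CYP1B1. Of 17 listed targets 10 were tested, and 7 fell (CYP1B1, SERPINB2, TIPARP, STC2, AHRR, SLC7A5 and NFE2L2), 1 rose (TGFBI) and 2 did not pass (NQO1 and FOXQ1), with a median log2 fold change of -0.94 where that of all tested genes was -0.000884. FOXQ1 had the highest log2 fold change on the list, 2.14, and was not called. The share that fell was 70%, against 3.28% of all genes, and 10% rose, against 2.36%. With no filter on low counts, which adds members at a few counts, the list median was -0.41. The 6 untested members with a place in the table had at most 10 counts in any library, CYP1A1 among them with 11 counts over the DOX+F libraries, 25 over the DOX libraries and 31 over the CTRL libraries. The list was written with earlier results of these data known, so its share of calls is not independent of them.

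CYP1B1 (ENSG00000138061, chromosome 2 from 38066973 to 38109902, - strand, GRCh38, GENCODE 29), a cytochrome P450 that oxidises aromatic compounds and steroids and is a standard readout of the receptor, had 11.1, 11.1, 10.9 and 10.2 CPM in the DOX+F libraries, against 91.1, 95.1, 102 and 101 CPM in the DOX libraries. The CTRL libraries were at 115, 110.5, 117 and 116 CPM. No DOX+F library came near either of the other groups (log2 fold change -3.17 ± 0.058, edgeR adjusted p = 4.29e-18). SERPINB2 (ENSG00000197632, chromosome 18 from 63871692 to 63903890, + strand), the plasminogen activator inhibitor PAI-2, had 1.36, 1.58, 1.54 and 2.13 CPM in the DOX+F libraries, against 27.8, 31, 30.4 and 29.5 CPM in the DOX libraries, and 30.8, 30.1, 32.3 and 28.5 CPM in CTRL. DOX and CTRL libraries overlapped, and all 4 DOX+F libraries were far below both (-4.16 ± 0.10, edgeR adjusted p = 4.2e-16). For these genes the change of DOX against CTRL was -0.23 ± 0.048 and -0.03 ± 0.069 on the log2 scale, while that of DOX+F against CTRL was -3.40 ± 0.058 and -4.20 ± 0.10.

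TIPARP (ENSG00000163659, chromosome 3 from 156673235 to 156706770, + strand), an enzyme of the poly(ADP-ribose) polymerase family that is induced by the receptor and restrains it, had 52, 52, 52.6 and 53.7 CPM in the DOX+F libraries, against 121, 114, 117 and 113 CPM in the DOX libraries (-1.14 ± 0.047, edgeR adjusted p = 2.42e-12). The 4 DOX+F libraries lay within a narrow band, below every DOX and CTRL library. AHRR (ENSG00000063438, chromosome 5 from 304176 to 438291, + strand), the repressor that competes with the receptor, had 16.1, 15.6, 13.7 and 13.1 CPM in the DOX+F libraries, against 29.2, 31.8, 25.7 and 26.4 CPM in the DOX libraries (-0.95 ± 0.079, edgeR adjusted p = 1.1e-07), with 46.3 ± 1.35 CPM in CTRL. SLC7A5 (ENSG00000103257, chromosome 16 from 87830023 to 87869488, - strand), the light chain of the large neutral amino acid transporter, had 456, 520.1, 448 and 495 CPM in the DOX+F libraries, against 932, 864, 914 and 935 CPM in the DOX libraries (-0.93 ± 0.048, edgeR adjusted p = 9.48e-11). It stood at 395 ± 10.3 CPM in CTRL, so that DOX was higher than CTRL by 1.21 ± 0.048 and DOX+F higher than CTRL by 0.28 ± 0.048 on the log2 scale. STC2 (ENSG00000113739, chromosome 5 from 173314713 to 173329503, - strand), a secreted stanniocalcin, had 802, 882, 747 and 796 CPM in the DOX+F libraries, against 1561, 1565, 1508 and 1594 CPM in the DOX libraries (-0.95 ± 0.047, edgeR adjusted p = 4.28e-11).

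NFE2L2, which codes for the oxidant-response factor NRF2, fell by less, to 63.5 ± 3.75 CPM in DOX+F, against 75.4 ± 6.15 CPM in DOX (-0.25 ± 0.061, edgeR adjusted p = 0.0185). That call was lost without replicate 1 or 2 of DOX+F or replicate 1 or 3 of DOX, with adjusted p up to 0.0855. TGFBI, a secreted adhesion protein, rose to 569 ± 3.93 CPM in DOX+F, against 491 ± 7.93 CPM in DOX (0.21 ± 0.036, edgeR adjusted p = 0.000739). NQO1, a quinone reductase that both the receptor and NRF2 can raise, averaged 387 ± 19.2 CPM in DOX+F and 369 ± 14.7 CPM in DOX (0.07 ± 0.056, edgeR adjusted p = 0.634). The receptor gene itself, AHR, averaged 87.8 ± 5.32 CPM in DOX+F and 79.5 ± 1.94 CPM in DOX, with overlapping libraries (0.14 ± 0.057, edgeR adjusted p = 0.193), and 143 ± 10.5 CPM in CTRL. Of the receptor and 7 partner and chaperone genes tested, 1 fell, ARNT2 (12.5%, against 3.28% of all genes). The call of ARNT2 was lost in 7 of the 22 alternatives run.

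The receptor binds DNA with its partner ARNT at elements built on the core GCGTG, which reads CACGC on the other strand. Promoter sequences from RefSeq (GRCh38.p14) ran from 250 bases before to 50 after a gene's first listed start. They were searched for that core on both strands, with overlapping matches counted. Other starts of a gene were not searched. For SERPINB2, AHRR, TIPARP and STC2 the window lay inside the gene span given above, and for NFE2L2 and NQO1 inside their GENCODE 29 span. Of 9 tested targets with a promoter in the table, 6 held it (AHRR, TIPARP, NQO1, SLC7A5, NFE2L2 and STC2) and 3 did not (SERPINB2, TGFBI and FOXQ1). The promoter of the tenth, CYP1B1, was not analysed here. The core is common: 36.3% of 27305 promoters held it, 50.9% of the 10389 tested genes with a promoter, 45.3% of 327 genes that fell and 47.8% of 247 that rose. The promoters of 4 targets that fell are shown to place the core in them, each 5′ to 3′ on the strand of its gene, with the core in capitals. They lie at chr5:321464-321763 (+ strand), chr3:156674340-156674639 (+ strand), chr16:87869458-87869757 (- strand) and chr5:173328365-173328664 (- strand).
AHRR: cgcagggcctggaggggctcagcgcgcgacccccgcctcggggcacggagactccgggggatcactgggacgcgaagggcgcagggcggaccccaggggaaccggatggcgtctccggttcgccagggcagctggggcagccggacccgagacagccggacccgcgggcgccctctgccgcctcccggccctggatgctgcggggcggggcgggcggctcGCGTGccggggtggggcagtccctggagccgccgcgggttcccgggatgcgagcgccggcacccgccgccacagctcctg
TIPARP: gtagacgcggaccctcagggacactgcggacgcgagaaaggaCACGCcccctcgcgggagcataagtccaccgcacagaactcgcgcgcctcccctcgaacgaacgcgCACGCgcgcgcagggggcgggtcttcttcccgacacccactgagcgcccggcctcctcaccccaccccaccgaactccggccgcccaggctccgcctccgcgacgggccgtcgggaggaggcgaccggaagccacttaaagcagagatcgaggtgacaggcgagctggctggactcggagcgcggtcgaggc
SLC7A5: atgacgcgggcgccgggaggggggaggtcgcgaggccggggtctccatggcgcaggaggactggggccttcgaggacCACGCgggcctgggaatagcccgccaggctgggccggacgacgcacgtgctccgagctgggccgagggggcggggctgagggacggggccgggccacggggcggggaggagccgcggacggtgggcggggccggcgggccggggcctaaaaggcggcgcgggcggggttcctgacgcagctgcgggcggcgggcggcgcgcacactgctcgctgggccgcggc
STC2: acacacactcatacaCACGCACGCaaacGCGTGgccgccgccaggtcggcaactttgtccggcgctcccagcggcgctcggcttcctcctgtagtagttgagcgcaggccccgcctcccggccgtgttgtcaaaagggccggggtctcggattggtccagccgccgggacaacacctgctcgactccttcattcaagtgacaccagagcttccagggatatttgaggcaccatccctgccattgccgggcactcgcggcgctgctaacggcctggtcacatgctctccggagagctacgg
AHRR and SLC7A5 held 1 match each, TIPARP 2 and STC2 3, of which the first 2 share a base. These are matches to letters, and no binding was measured.

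**Figure D2:**
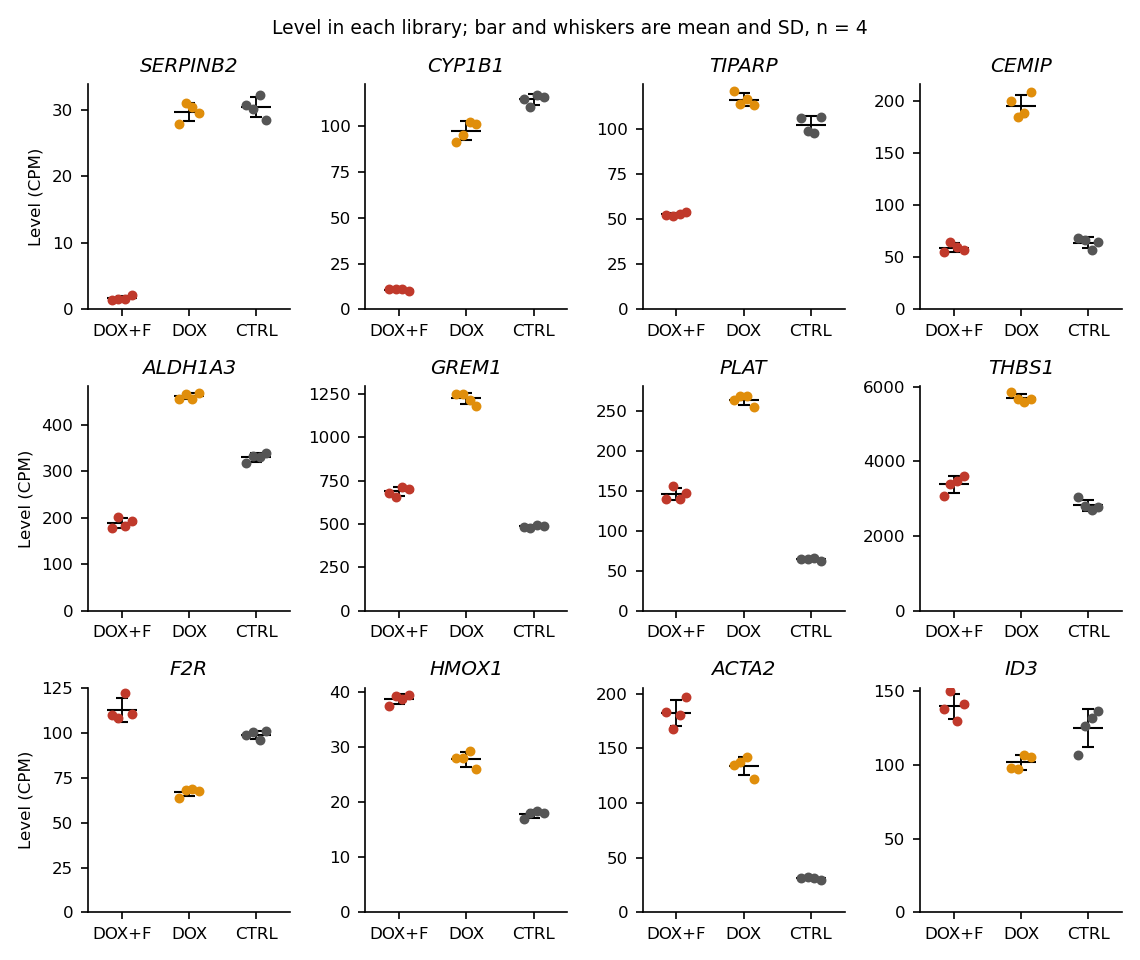
Level in CPM (linear axes from 0) of 12 genes in each library of DOX+F (red), DOX (orange) and CTRL (grey), with the mean and SD of the 4 libraries of a group. DOX+F lies below DOX in the first 8 panels and above it in the last 4 (F2R, HMOX1, ACTA2 and ID3), with no overlap of these 2 groups in any panel.

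Many secreted factors of the SASP fell. Of 39 listed factors 26 were tested, and 10 fell, 2 rose (SPP1 and TIMP2) and 14 did not pass, with a median of -0.17 (-0.27 with a stricter filter on low counts). The share that fell was 38.5%, against 3.28% of all genes, and 9 of the 10 falls and 1 of the 2 rises held in all 22 alternatives. IL6 did not, with adjusted p up to 0.160, and TIMP2 did not, with adjusted p up to 0.108. The 10 untested factors in the table had too few counts, among them CXCL8 (at most 5 in a library) and IL1A (at most 13). In DOX against CTRL, 18 of the 26 tested factors were called higher and 3 lower.

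CCL2, the monocyte chemokine, had 1.98, 2.15, 2.05 and 2.21 CPM in the DOX+F libraries, against 6.77, 7.92, 10.7 and 6.38 CPM in the DOX libraries (-1.92 ± 0.16, edgeR adjusted p = 1.36e-07). IL1B, the inflammatory cytokine interleukin 1 beta, had 1.86, 2.66, 2.77 and 1.95 CPM in the DOX+F libraries, against 6.77, 7.43, 9.38 and 6.55 CPM in the DOX libraries (-1.72 ± 0.16, edgeR adjusted p = 4.84e-07). Both were low in every group, with 6.66 ± 0.559 and 6.38 ± 0.565 CPM in CTRL, and for both every DOX+F library was below every DOX and CTRL library. Neither passed in DOX against CTRL (0.26 ± 0.14 and 0.24 ± 0.14, edgeR adjusted p = 0.121 and 0.149). PLAT, tissue plasminogen activator, had 140.0, 156, 140.4 and 148 CPM in the DOX+F libraries, against 263, 269, 269.5 and 255 CPM in the DOX libraries (-0.85 ± 0.045, edgeR adjusted p = 9.59e-11), and 64.6 ± 1.46 CPM in CTRL. The DOX+F libraries of PLAT thus lay between the other groups, with DOX+F above CTRL by 1.18 ± 0.047 and DOX above CTRL by 2.03 ± 0.047.

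Growth factors on the list moved less. FGF2, a fibroblast growth factor, averaged 256 ± 14.9 CPM in DOX+F and 368 ± 13.4 CPM in DOX (-0.52 ± 0.048, edgeR adjusted p = 4.33e-07). INHBA, the activin A subunit, averaged 347 ± 8.85 CPM in DOX+F and 459 ± 23.1 CPM in DOX (-0.40 ± 0.045, edgeR adjusted p = 4.94e-06). The cytokine gene LIF, named after its values were seen, averaged 285 ± 19.7 CPM in DOX+F and 367 ± 16.5 CPM in DOX (-0.37 ± 0.054, edgeR adjusted p = 0.000154). VEGFA, the vascular growth factor, averaged 45.2 ± 1.46 CPM in DOX+F and 61.7 ± 4.05 CPM in DOX, with 148 ± 10.3 CPM in CTRL (-0.45 ± 0.060, edgeR adjusted p = 4.69e-05). IGFBP3, which binds insulin-like growth factors, averaged 401 ± 31.9 CPM in DOX+F and 499 ± 27.6 CPM in DOX (-0.32 ± 0.055, edgeR adjusted p = 0.001). All 4 libraries of DOX+F were below all 4 of DOX for each of these 5 genes. SPP1, osteopontin, which was named after its values were seen, rose to 67.5 ± 6.2 CPM in DOX+F, against 49.4 ± 1.66 CPM in DOX (0.45 ± 0.063, edgeR adjusted p = 8.11e-05). ANGPTL4, an inhibitor of lipoprotein lipase, did not pass, at -0.06 ± 0.089.

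Some genes of inflammatory signalling fell. Of 19 NF-kB targets, 4 fell (CCL2, IER3, TNFAIP2 and IL6; 21.1%, against 3.28% of all genes) and 0 rose, with a median of -0.17, and only CCL2 and IER3 held in all alternatives. IER3, an early stress gene, averaged 52.4 ± 3.01 CPM in DOX+F and 81.6 ± 3.21 CPM in DOX (-0.64 ± 0.054, edgeR adjusted p = 1.31e-07). Of 20 interferon-stimulated genes, 3 fell (15%) and 0 rose. IFIT3, an antiviral protein, held in all alternatives (-0.51 ± 0.089, edgeR adjusted p = 0.00102).

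**Figure D3:**
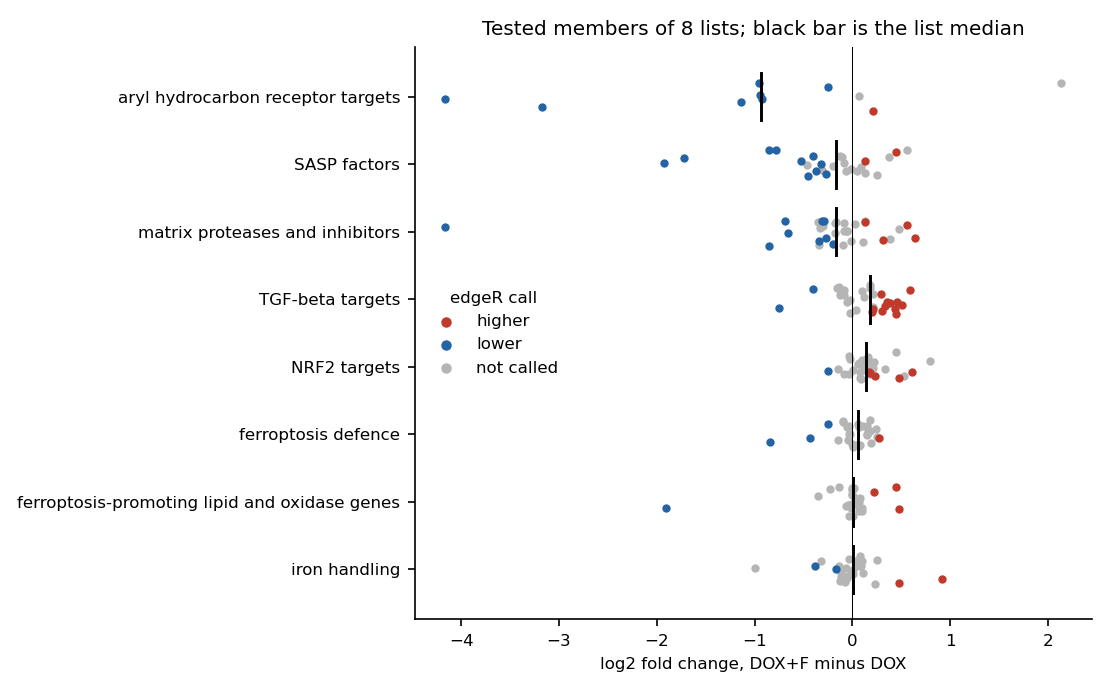
Log2 fold change of DOX+F minus DOX for each tested member of 8 lists, with genes called higher in red, called lower in blue and not called in grey, and the list median as a black bar. The medians run from -0.94 for aryl hydrocarbon receptor targets to 0.18 for TGF-beta targets, and the ferroptosis and iron lists centre near 0.

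Many genes that read out TGF-beta and bone morphogenetic protein (BMP) signalling rose. Of 30 tested TGF-beta targets, 12 rose (40%, against 2.36% of all genes), 2 fell (THBS1 and INHBA) and 16 did not pass, with a median of 0.18. In all 22 alternatives 11 of the rises and both falls held, and the list median stayed between 0.14 and 0.19. The lost rise was BHLHE40, with adjusted p up to 0.103.

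SMAD6, an inhibitor induced by BMP signals, had 27, 29.6, 27.7 and 24 CPM in the DOX+F libraries, against 17.8, 18.3, 17 and 19 CPM in the DOX libraries (0.59 ± 0.069, edgeR adjusted p = 1.07e-05). ID3 and ID1, inhibitors of differentiation that BMPs raise directly and that were named after their values were seen, rose as well. ID3 averaged 139.5 ± 8.46 CPM in DOX+F and 102 ± 4.83 CPM in DOX (0.46 ± 0.066, edgeR adjusted p = 0.000111). ID1 averaged 63.8 ± 3.48 CPM in DOX+F and 47.1 ± 3.23 CPM in DOX (0.44 ± 0.078, edgeR adjusted p = 0.00118). In DOX against CTRL these 3 genes stood at -0.92 ± 0.068, -0.30 ± 0.066 and -0.45 ± 0.078 on the log2 scale, all called lower. Against CTRL, DOX+F stood at -0.33 ± 0.065, 0.16 ± 0.065 and -0.02 ± 0.076, of which the last did not pass (edgeR adjusted p = 0.864). GREM1, a secreted antagonist that binds BMPs, went the other way, with 676, 658, 716 and 699 CPM in the DOX+F libraries, against 1248, 1248, 1216 and 1181 CPM in the DOX libraries and 486 ± 6.67 CPM in CTRL (-0.83 ± 0.038, edgeR adjusted p = 1.56e-11).

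The latent TGF-beta binding proteins, which hold the cytokine in the matrix, rose as well. LTBP1 averaged 209.8 ± 3.37 CPM in DOX+F and 160.2 ± 6.51 CPM in DOX (0.39 ± 0.041, edgeR adjusted p = 2.85e-06). For LTBP2 the means were 417 ± 33 CPM in DOX+F and 293 ± 19.2 CPM in DOX (0.51 ± 0.060, edgeR adjusted p = 1.16e-05). LTBP3, named after its values were seen, averaged 539.9 ± 49.5 CPM in DOX+F and 442 ± 9.74 CPM in DOX (0.29 ± 0.053, edgeR adjusted p = 0.0016). CDKN2B, the cell-cycle inhibitor p15 that TGF-beta induces, also named after its values were seen, averaged 33 ± 1.12 CPM in DOX+F and 25.8 ± 1.39 CPM in DOX (0.35 ± 0.058, edgeR adjusted p = 0.000508). CCN2, a matricellular growth factor, rose by little, to 1645 ± 44.8 CPM in DOX+F, against 1429 ± 57.8 CPM in DOX (0.20 ± 0.042, edgeR adjusted p = 0.00444).

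THBS1 (ENSG00000137801, chromosome 15 from 39581079 to 39599466, + strand), thrombospondin 1, an adhesive matrix glycoprotein that can activate latent TGF-beta, had 3086, 3387, 3465 and 3608 CPM in the DOX+F libraries, against 5858, 5674, 5588 and 5680.3 CPM in the DOX libraries, and 2829 ± 147 CPM in CTRL. Every DOX+F library was below every DOX library and above every CTRL library (-0.75 ± 0.046, edgeR adjusted p = 1.04e-09). Of 29 tested actin cytoskeleton and smooth muscle genes, 4 rose (ACTA2, TAGLN, TPM1 and TAGLN2; 13.8%, against 2.36% of all genes), 0 fell and 25 did not pass, and the 4 held in every alternative. ACTA2, smooth muscle actin, had 184, 168, 181 and 197 CPM in the DOX+F libraries, against 135, 137, 142 and 122 CPM in the DOX libraries, while CTRL averaged 31.4 ± 1.19 CPM (0.44 ± 0.055, edgeR adjusted p = 1.84e-05). TAGLN, transgelin, averaged 1357 ± 74.8 CPM in DOX+F and 1073 ± 37.2 CPM in DOX (0.34 ± 0.051, edgeR adjusted p = 0.000184). TPM1, a tropomyosin, averaged 2008 ± 74.5 CPM in DOX+F and 1694 ± 32.6 CPM in DOX (0.25 ± 0.036, edgeR adjusted p = 0.000155). ACTA2, TAGLN and CCN2 stand on more than 1 of these lists, so the counts are not independent. The same holds for other lists described here, where SERPINB2, CYP1B1, STC2, SLC7A5, CCL2 and IL6, among others, count more than 1 time.

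Matrix genes changed in both directions. Of 42 tested extracellular matrix genes, 8 rose, 9 fell and 25 did not pass, a share called of 40.5% against 5.64% of all genes, and 5 rises and 4 falls held in all alternatives. LAMB3, a chain of laminin 332, rose to 31.8 ± 2.36 CPM in DOX+F, against 23.7 ± 0.13 CPM in DOX (0.42 ± 0.064, edgeR adjusted p = 0.000187). NID2, a basement membrane linker, and COL5A2, a fibrillar collagen, fell, at -0.40 ± 0.049 and -0.50 ± 0.043. CEMIP (ENSG00000103888, chromosome 15 from 80779343 to 80951776, + strand), which degrades hyaluronan, the large sugar polymer of the matrix, had 55.5, 64.8, 59.8 and 57.3 CPM in the DOX+F libraries, against 200.2, 184, 189 and 208 CPM in the DOX libraries. The CTRL libraries were at 68.3, 67.1, 56.7 and 64.2 CPM, which overlapped the DOX+F libraries, and all 4 DOX libraries stood above both (-1.72 ± 0.063, edgeR adjusted p = 3.36e-13). DOX was above CTRL by 1.61 ± 0.063, while DOX+F against CTRL was -0.11 ± 0.064 (edgeR adjusted p = 0.134).

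Among matrix proteases and their inhibitors, 9 of 31 fell (29%, against 3.28% of all genes), 4 rose (12.9%, against 2.36%) and 18 did not pass, with a median of -0.17. SERPINB2 and PLAT, described above, led the falls. ADAMTS1, a protease that cuts proteoglycans, averaged 226 ± 8.63 CPM in DOX+F and 364 ± 7.17 CPM in DOX (-0.69 ± 0.041, edgeR adjusted p = 6.07e-10). ADAMTS15, of the same family, averaged 11 ± 1.03 CPM in DOX+F and 17.4 ± 1.74 CPM in DOX (-0.66 ± 0.081, edgeR adjusted p = 1.85e-05). SERPINE2, the protease nexin that blocks thrombin and urokinase, rose, with 369 ± 5.83 CPM in DOX+F and 296 ± 4.83 CPM in DOX (0.32 ± 0.038, edgeR adjusted p = 1.23e-05). In all alternatives 7 of the falls and 3 of the rises held. F3, tissue factor, which starts coagulation, averaged 482 ± 27.1 CPM in DOX+F and 610.3 ± 10.9 CPM in DOX (-0.34 ± 0.043, edgeR adjusted p = 2.62e-05). F2R (ENSG00000181104, chromosome 5 from 76716043 to 76735781, + strand), the thrombin receptor PAR1, had 110.1, 108, 122 and 110.5 CPM in the DOX+F libraries, against 64, 67.9, 68.9 and 67.9 CPM in the DOX libraries, and 98.9, 100.4, 95.8 and 101 CPM in CTRL (0.75 ± 0.049, edgeR adjusted p = 3.02e-09). DOX+F was the highest of the 3 groups for F2R and DOX the lowest, and DOX+F replicate 3 stood above the other 3 of its group.

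Genes of the retinoic acid pathway changed in both directions. Of 14 tested, 5 fell (35.7%, against 3.28% of all genes), 2 rose (14.3%, against 2.36%) and 7 did not pass, with a median of 0.05. ALDH1A3 (ENSG00000184254, chromosome 15 from 100877714 to 100916626, + strand), which makes retinoic acid from retinal, had 179, 201, 183 and 193 CPM in the DOX+F libraries, against 456, 467, 456 and 469 CPM in the DOX libraries, and CTRL libraries had 318, 333, 332 and 339.6 CPM. All 4 DOX+F libraries were below every library of the other groups (-1.29 ± 0.044, edgeR adjusted p = 1.26e-13). RDH10, which makes retinal from retinol, also fell (-0.35 ± 0.066, edgeR adjusted p = 0.00189), whereas CYP26B1, which breaks retinoic acid down, rose (0.47 ± 0.099, edgeR adjusted p = 0.00541). The call of RARB was lost in 6 alternatives. That of RARA, named after its values were seen, was lost in 14.

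Further large falls lay outside the lists. SHISA2, which holds back Wnt and FGF receptors during maturation, had 3.18, 3.58, 3.23 and 3.32 CPM in the DOX+F libraries, against 16.2, 15.9, 17.8 and 18.3 CPM in the DOX libraries and 57.8 ± 3.2 CPM in CTRL (-2.36 ± 0.087, edgeR adjusted p = 3.36e-13), so DOX was below CTRL and DOX+F below DOX. BEX1, a small adaptor of the brain-expressed X-linked family, averaged 82 ± 4.95 CPM in DOX+F and 252 ± 12.6 CPM in DOX (-1.62 ± 0.076, edgeR adjusted p = 1.77e-11). FAM167A averaged 7.96 ± 0.927 CPM in DOX+F and 25 ± 1.61 CPM in DOX (-1.66 ± 0.089, edgeR adjusted p = 1.31e-10). ALPK2, an alpha-kinase, averaged 5.85 ± 1.14 CPM in DOX+F and 14.1 ± 1.12 CPM in DOX (-1.28 ± 0.14, edgeR adjusted p = 3e-06). The membrane protein gene TMEM156 averaged 1.47 ± 0.32 CPM in DOX+F and 6.25 ± 0.662 CPM in DOX (-2.08 ± 0.16, edgeR adjusted p = 2.69e-08). KRTAP2-3 belongs to a family of near-identical keratin-associated genes, so reads may be shared with its copies, and it averaged 8.89 ± 1.08 CPM in DOX+F and 25.5 ± 1.74 CPM in DOX (-1.52 ± 0.099, edgeR adjusted p = 2.8e-09). MUSK, a receptor kinase of the neuromuscular junction, averaged 1.4 ± 0.259 CPM in DOX+F and 3.2 ± 0.178 CPM in DOX (-1.19 ± 0.19, edgeR adjusted p = 0.000378). The 4 DOX+F libraries were below the 4 DOX libraries for each of these genes, as the naming rule required.

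Rises outside the lists were smaller. PTTG1IP, a binding partner of securin, averaged 733 ± 15 CPM in DOX+F and 472 ± 21.3 CPM in DOX (0.63 ± 0.042, edgeR adjusted p = 3.61e-09). S100A10, the annexin A2 partner that binds plasminogen at the cell surface, averaged 96.9 ± 6.08 CPM in DOX+F and 60.8 ± 2.37 CPM in DOX (0.67 ± 0.063, edgeR adjusted p = 4.83e-07). PAPSS2, which makes the sulphate donor for proteoglycans, averaged 739 ± 28.9 CPM in DOX+F and 537 ± 12.2 CPM in DOX (0.46 ± 0.040, edgeR adjusted p = 2.1e-07). EPAS1, the hypoxia factor HIF-2 alpha, averaged 197 ± 10.9 CPM in DOX+F and 133 ± 2.36 CPM in DOX (0.56 ± 0.054, edgeR adjusted p = 6.5e-07). RGS5, a regulator of G-protein signalling known from pericytes, averaged 30.1 ± 2.96 CPM in DOX+F and 16.4 ± 0.894 CPM in DOX (0.87 ± 0.11, edgeR adjusted p = 3.34e-05). FHL1, a LIM-domain protein of muscle, averaged 15.5 ± 0.158 CPM in DOX+F and 7.92 ± 1.18 CPM in DOX (0.97 ± 0.11, edgeR adjusted p = 4.94e-06). PPP2R2B, a regulatory subunit of protein phosphatase 2A, averaged 4.46 ± 0.207 CPM in DOX+F and 1.75 ± 0.654 CPM in DOX (1.35 ± 0.21, edgeR adjusted p = 0.000346). ITGB2, the beta 2 integrin chain of leukocytes, averaged 3.08 ± 0.403 CPM in DOX+F and 1.34 ± 0.178 CPM in DOX (1.19 ± 0.20, edgeR adjusted p = 0.00055). RPL36A-HNRNPH2, a readthrough transcript, and the pseudogenes RPL23AP42 and HMGB1P5 rose too (1.60 ± 0.18, 1.28 ± 0.19 and 0.82 ± 0.17), but reads from them and from their parent genes can be split differently between libraries, so these values are uncertain.

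Most genes of ferroptosis, the process ferrostatin-1 blocks, did not pass the test. Of 30 tested defence genes, 1 rose (SCD), 3 fell (GCH1, SLC3A2 and NFE2L2) and 26 did not pass, a share called of 13.3% beside 5.64% of all genes, with a median of 0.06. Of 28 tested ferroptosis-promoting lipid and oxidase genes, 3 rose (HMOX1, FADS2 and CHAC1), 1 fell (PTGS2) and 24 did not pass, a share called of 14.3%, with a median of 0.00227. The count table also carries a column of 71 gene symbols with no stated purpose, many of them known from ferroptosis. Of its 63 tested genes 1 rose (HMOX1), 2 fell (GCH1 and SLC3A2) and 60 did not pass, a share called of 4.76%.

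GPX4 (ENSG00000167468, chromosome 19 from 1103926 to 1106791, + strand), the peroxidase that removes lipid peroxides, had 186, 178, 168 and 184 CPM in the DOX+F libraries, against 149, 157, 173 and 161 CPM in the DOX libraries, and the groups overlapped (0.16 ± 0.069, edgeR adjusted p = 0.239). SLC7A11, the cystine importer, averaged 121 ± 15.4 CPM in DOX+F and 106 ± 4.55 CPM in DOX (0.18 ± 0.071, edgeR adjusted p = 0.173), and was called higher only when no filter on low counts was used (edgeR adjusted p = 0.0489). ACSL4, which loads polyunsaturated fatty acids into phospholipids, averaged 226 ± 13.7 CPM in DOX+F and 224 ± 11 CPM in DOX (0.02 ± 0.051, edgeR adjusted p = 0.926). AIFM2, the coenzyme Q reductase FSP1, averaged 37.4 ± 2.06 CPM in DOX+F and 40.1 ± 3.19 CPM in DOX (-0.10 ± 0.069, edgeR adjusted p = 0.545). None of these 4 genes passed in the fit reported. Their standard errors were 0.05 to 0.07 on the log2 scale. Estimates well above that, 0.16 for GPX4 and 0.18 for SLC7A11, were still not called, so changes of that size could be missed.

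SLC3A2 codes for the heavy chain that carries both the cystine importer and SLC7A5 to the membrane. It had 228, 228, 192 and 239 CPM in the DOX+F libraries, against 295, 302, 292 and 305 CPM in the DOX libraries (-0.43 ± 0.064, edgeR adjusted p = 0.00017). GCH1 (ENSG00000131979, chromosome 14 from 54842008 to 54902852, - strand), which makes tetrahydrobiopterin, a lipid-soluble antioxidant, had 2.19, 2.4, 2.56 and 2.66 CPM in the DOX+F libraries, against 5.02, 4.29, 4.08 and 4.19 CPM in the DOX libraries (-0.84 ± 0.15, edgeR adjusted p = 0.00107). It was low in every group, with 3.6 ± 0.324 CPM in CTRL. SCD, the desaturase that makes monounsaturated fatty acids, averaged 684 ± 44.2 CPM in DOX+F and 567 ± 25.6 CPM in DOX (0.27 ± 0.051, edgeR adjusted p = 0.00177). FADS2, which desaturates polyunsaturated ones, averaged 289 ± 10.3 CPM in DOX+F and 248 ± 2.85 CPM in DOX (0.22 ± 0.044, edgeR adjusted p = 0.00353). PTGS2, cyclooxygenase 2, often used as a marker of ferroptosis, had 0.289, 0.46, 0.154 and 0.0886 CPM in the DOX+F libraries, against 0.959, 0.698, 1.02 and 1.09 CPM in the DOX libraries (-1.91 ± 0.38, edgeR adjusted p = 0.00344). In CTRL, PTGS2 averaged 1.45 ± 0.0834 CPM, and DOX against CTRL did not pass (-0.62 ± 0.30, edgeR adjusted p = 0.0769). Its levels were close to what a count of 0 allows in 2 of the DOX+F libraries. The size of the fall in DOX+F is thus poorly fixed, although no DOX+F library overlapped a DOX library. CHAC1, which degrades glutathione, was called higher (0.45 ± 0.12, edgeR adjusted p = 0.0342), but lost in 8 of 22 alternatives.

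HMOX1 (ENSG00000100292, chromosome 22 from 35380361 to 35394214, + strand), haem oxygenase 1, which frees iron from haem, had 37.5, 39.3, 38.7 and 39.5 CPM in the DOX+F libraries, against 28, 28.1, 29.2 and 26 CPM in the DOX libraries, and 16.9, 18.1, 18.4 and 18.1 CPM in CTRL. The 3 groups did not overlap, with DOX+F the highest and CTRL the lowest (0.48 ± 0.055, edgeR adjusted p = 9.05e-06). Of 34 tested NRF2 targets, 5 rose (HMOX1, PGD, TKT, ABCC3 and UGDH; 14.7%, against 2.36% of all genes), 1 fell (NFE2L2 itself) and 28 did not pass, with a median of 0.14. PGD and TKT, enzymes of the pentose phosphate pathway, rose by small amounts. PGD averaged 281 ± 7.11 CPM in DOX+F and 239 ± 4.79 CPM in DOX (0.24 ± 0.041, edgeR adjusted p = 0.000911). TKT averaged 838 ± 32 CPM in DOX+F and 738 ± 16.2 CPM in DOX (0.18 ± 0.041, edgeR adjusted p = 0.00919). ABCC3, an export pump for conjugates, averaged 10.7 ± 1.44 CPM in DOX+F and 7.01 ± 0.676 CPM in DOX (0.61 ± 0.11, edgeR adjusted p = 0.00195). UGDH, named after its values were seen, was lost in 8 alternatives, and the other 4 rises held in all.

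Most iron handling genes did not pass. Of 29 tested, 2 rose (HMOX1 and BMP6), 2 fell (FBXL5 and ACO1) and 25 did not pass, a share called of 13.8% beside 5.64% of all genes, with a median of 0.00320. FBXL5, the iron sensor that directs degradation of the iron regulatory protein IRP2, averaged 53.1 ± 3.39 CPM in DOX+F and 69.1 ± 5.75 CPM in DOX (-0.38 ± 0.063, edgeR adjusted p = 0.000585). FTH1, the ferritin heavy chain, averaged 4129 ± 155 CPM in DOX+F and 3911 ± 186 CPM in DOX (0.08 ± 0.042, edgeR adjusted p = 0.387). TFRC, the transferrin receptor, averaged 274 ± 17.7 CPM in DOX+F and 302 ± 7.8 CPM in DOX (-0.14 ± 0.048, edgeR adjusted p = 0.102). TFRC was called lower only without DOX+F replicate 4 (edgeR adjusted p = 0.0456). The calls of ACO1 and BMP6 were lost in 2 and 8 alternatives.

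**Figure D4:**
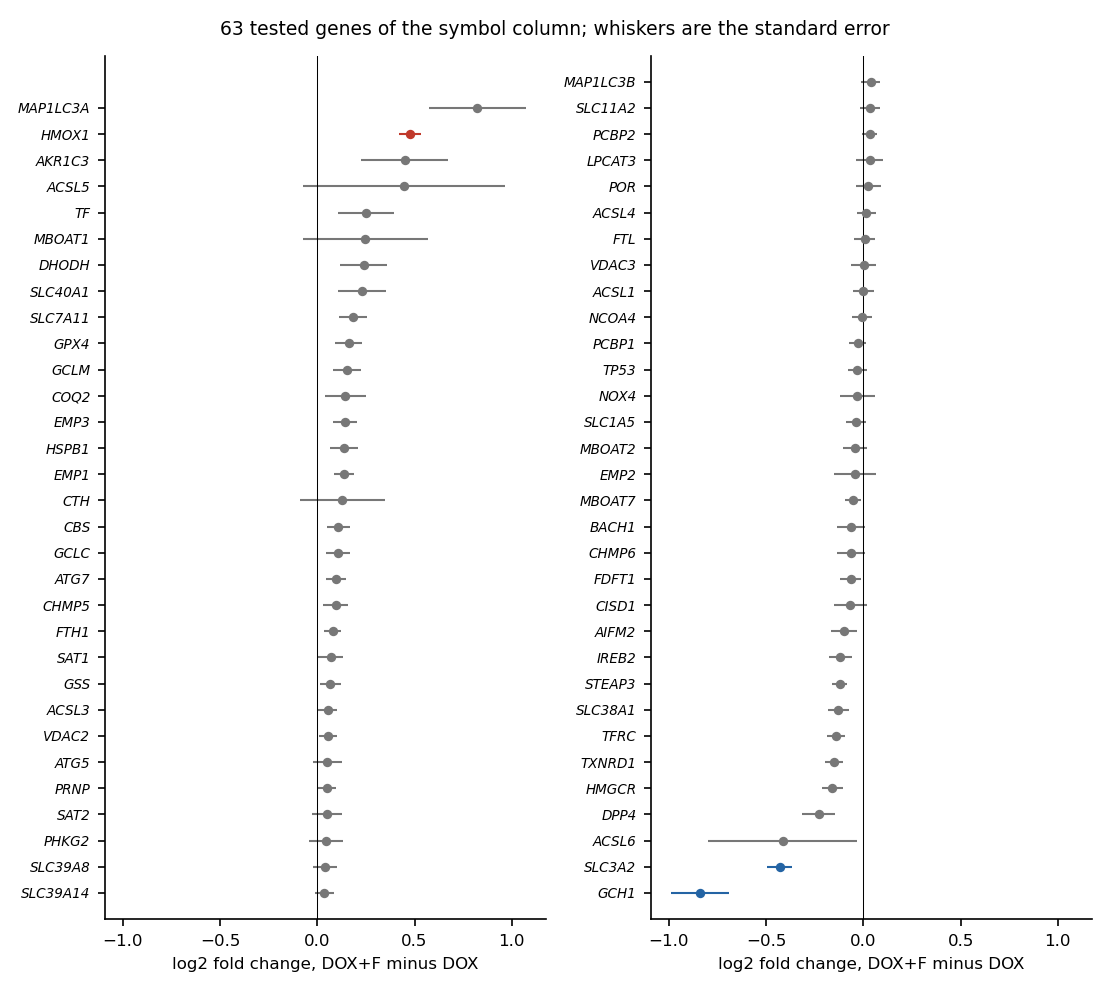
Log2 fold change of DOX+F minus DOX, with its standard error, for the 63 tested genes of the table's symbol column, ordered from the highest at the top left to the lowest at the bottom right. HMOX1 (red, 0.48) is the gene called higher, and SLC3A2 (-0.43) and GCH1 (-0.84), in blue, are those called lower.

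All calls in the glycolysis and cholesterol lists were falls. Of 35 tested genes of glycolysis and the hypoxia response, 8 fell (22.9%, against 3.28% of all genes), 0 rose and 27 did not pass, with a median of -0.05, and 6 falls held in all alternatives. BNIP3L, a mitophagy receptor, averaged 127 ± 7.01 CPM in DOX+F and 175 ± 9.86 CPM in DOX (-0.46 ± 0.051, edgeR adjusted p = 5.56e-06). PLOD2, a collagen lysyl hydroxylase, averaged 408 ± 20.4 CPM in DOX+F and 496 ± 19.8 CPM in DOX (-0.28 ± 0.045, edgeR adjusted p = 0.000332). LDHA, lactate dehydrogenase A, averaged 782 ± 31.2 CPM in DOX+F and 940.2 ± 57.6 CPM in DOX (-0.27 ± 0.046, edgeR adjusted p = 0.000849). Of 28 cholesterol synthesis and uptake genes, 4 fell (INSIG1, TM7SF2, ACAT2 and HMGCS1; 14.3%) and 0 rose. INSIG1, which retains the sterol sensor in the endoplasmic reticulum, averaged 69.1 ± 0.631 CPM in DOX+F and 92 ± 3.73 CPM in DOX (-0.41 ± 0.045, edgeR adjusted p = 4.05e-06), and HMGCS1 was lost in 13 alternatives.

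Targets of the amino acid stress factor ATF4 went both ways. Of 28 tested, 6 rose (21.4%, against 2.36% of all genes), 3 fell (SLC7A5, STC2 and SLC3A2; 10.7%, against 3.28%) and 19 did not pass, with a median of 0.10. All 3 falls held in every alternative and none of the 6 rises did, PHGDH and ASNS of serine and asparagine synthesis among them (0.29 ± 0.068 and 0.33 ± 0.079). Of 24 unfolded protein response genes, 0 were called, beside 5.64% of all genes. Among 7 tested metallothioneins and zinc exporters 3 fell, MT1E, MT2A and MT1X (42.9%, against 3.28% of all genes). These near-identical genes share reads, so single values are uncertain (-0.33 ± 0.048 and -0.26 ± 0.057).

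Of 44 lysosome genes, 5 rose (11.4%, against 2.36% of all genes), 3 fell (6.82%, against 3.28%) and 36 did not pass. LIPA, the acid lipase that frees cholesterol from lipoproteins, averaged 153 ± 7.7 CPM in DOX+F and 183 ± 8.77 CPM in DOX (-0.25 ± 0.047, edgeR adjusted p = 0.00157). ASAH1, acid ceramidase, averaged 82.8 ± 4.39 CPM in DOX+F and 98.1 ± 6.52 CPM in DOX (-0.24 ± 0.054, edgeR adjusted p = 0.0082). PSAP, the precursor of the saposins, averaged 3409.7 ± 65.9 CPM in DOX+F and 3014 ± 59 CPM in DOX (0.18 ± 0.037, edgeR adjusted p = 0.00443). Among 13 mitochondrially encoded genes 1 rose (7.69%, against 2.36%) and 2 fell (15.4%, against 3.28%), and none of these held in all alternatives. Of 46 cytosolic ribosomal protein genes 4 rose (8.7%, against 2.36% of all genes) and 0 fell, of which RPL37 and RPS23 held (0.27 ± 0.058 and 0.25 ± 0.056). All 46 had a log2 fold change above 0, from 0.00586 to 0.27. Their median was 0.09 and stayed between 0.08 and 0.12 in the alternatives.

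Growth signalling and adhesion lists were split. Of 32 tested EGF receptor ligands and MAPK feedback genes 4 fell (12.5%, against 3.28% of all genes), 2 rose (6.25%, against 2.36%) and 26 did not pass. PHLDA1, a pleckstrin homology gene raised by growth factors, averaged 197 ± 9.12 CPM in DOX+F and 251 ± 1.86 CPM in DOX (-0.35 ± 0.042, edgeR adjusted p = 1.27e-05). SPRY2, a feedback inhibitor of receptor kinases, averaged 34.2 ± 2.07 CPM in DOX+F and 42.8 ± 2.94 CPM in DOX (-0.32 ± 0.061, edgeR adjusted p = 0.00185). Both held in all alternatives, as did IER3, whereas DUSP4, CCND1 and FOSL1 did not. Of 26 immediate early genes 3 fell (11.5%, against 3.28% of all genes) and 1 rose (3.85%, against 2.36%). The rise was KLF10, a transcription factor that TGF-beta induces (0.35 ± 0.060, edgeR adjusted p = 0.000733). Of 26 YAP/TAZ targets 2 fell, F3 and AJUBA (7.69%, against 3.28%), and 1 rose, CCN2 (3.85%, against 2.36%). AJUBA, a LIM-domain scaffold of cell junctions, averaged 171 ± 7.41 CPM in DOX+F and 210.0 ± 2.66 CPM in DOX (-0.30 ± 0.043, edgeR adjusted p = 0.000111).

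Of 15 tested mesenchymal factors and cadherins 2 rose (13.3%, against 2.36% of all genes) and 2 fell (13.3%, against 3.28%). CDH6, a cadherin, averaged 82.8 ± 4.08 CPM in DOX+F and 106 ± 2.76 CPM in DOX (-0.36 ± 0.047, edgeR adjusted p = 4.31e-05). CDH4, another cadherin, averaged 25.2 ± 1.4 CPM in DOX+F and 18.4 ± 1.12 CPM in DOX (0.45 ± 0.065, edgeR adjusted p = 0.000102). ZEB2, a repressor of epithelial genes, averaged 55.2 ± 3.63 CPM in DOX+F and 45.9 ± 1.51 CPM in DOX (0.27 ± 0.055, edgeR adjusted p = 0.0047), and CDH13 was lost in some alternatives. BMF, a pro-apoptotic BCL2 relative that was named after its values were seen, averaged 5.02 ± 0.62 CPM in DOX+F and 10.8 ± 1.0 CPM in DOX, with 32.5 ± 1.8 CPM in CTRL (-1.12 ± 0.099, edgeR adjusted p = 2.57e-07). It was 1 of 2 calls among 34 tested apoptosis genes (5.88%, beside 5.64% of all genes). The other, a rise of BCL2L1, was lost in 9 alternatives.

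**Figure D5:**
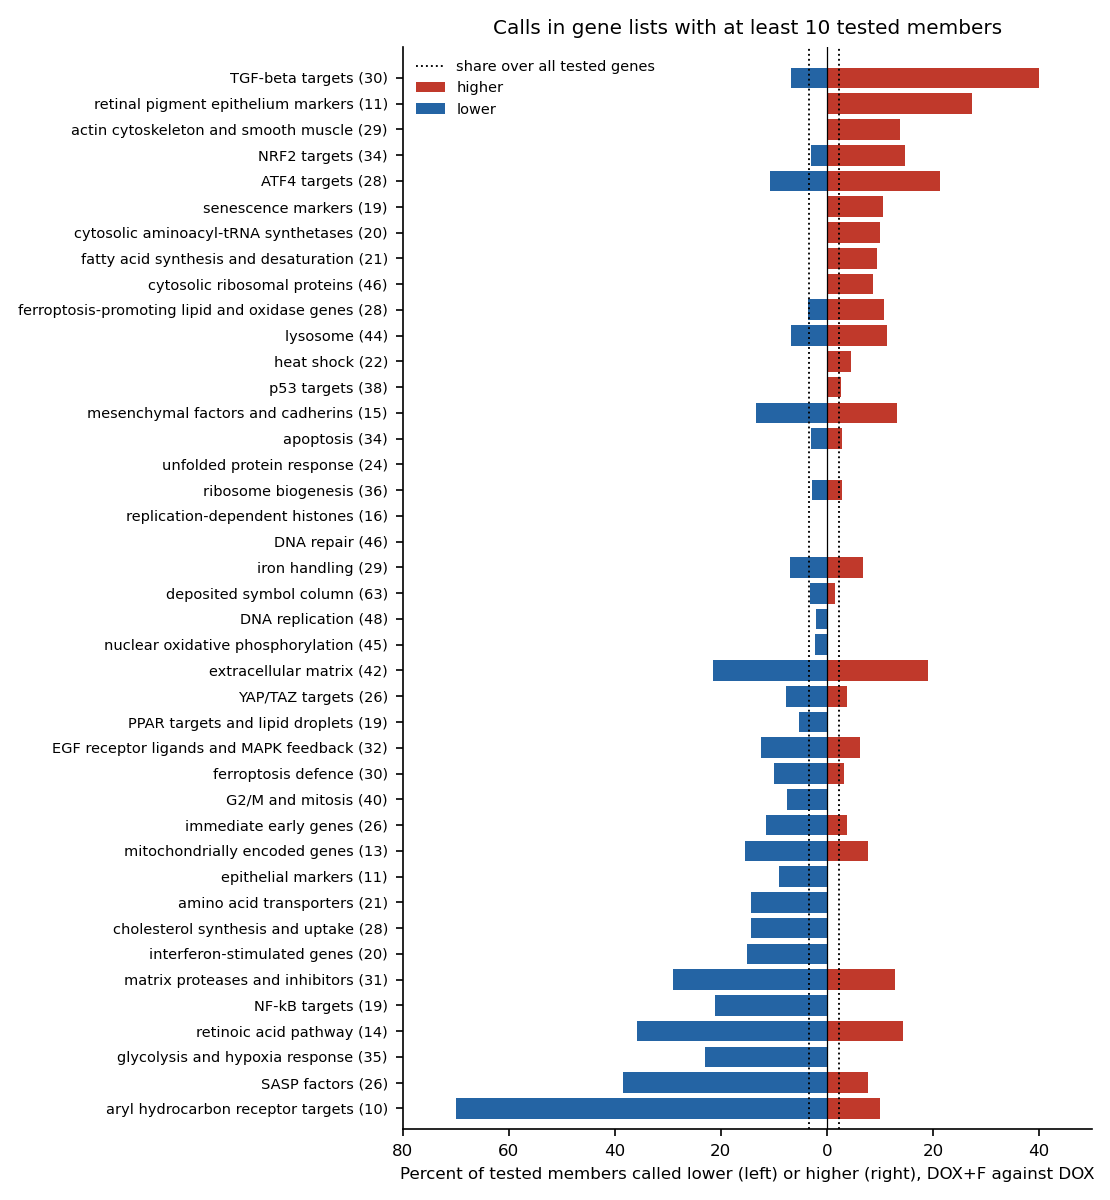
Percent of the tested members of each list (number tested in brackets) called higher in DOX+F, to the right, or lower, to the left, for lists with at least 10 tested members, with dotted lines at the shares over all tested genes, 2.36% and 3.28%. The aryl hydrocarbon receptor and SASP lists reach furthest to the left, at 70% and 38.5%, and the TGF-beta list furthest to the right, at 40%.

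Genes of cell division, DNA repair and the p53 response mostly did not pass between DOX+F and DOX, where 5.64% of all tested genes were called. Of 40 genes of G2/M and mitosis, 3 were called lower (TPX2, ANLN and TOP2A; 7.5%, against 3.28% of all genes), 0 rose, and none of the 3 held in all alternatives. The list median was -0.10, with 31 members below 0 and 9 above, and it stayed between -0.11 and -0.07 in the alternatives. The DNA replication list had a median of -0.02, with 30 members below 0 and 18 above. Of its 48 genes 1 fell (2.08%, against 3.28% of all genes). It was RRM2, a ribonucleotide reductase subunit named after its values were seen (-0.24 ± 0.050, edgeR adjusted p = 0.00481). Of 46 DNA repair genes and 16 replication-dependent histone genes, 0 were called, beside 5.64% of all genes. The DNA repair list had a median of -0.02, with 30 members below 0 and 16 above. Of 38 p53 targets 1 was called (2.63%, against 5.64% of all genes). This was AEN, a nuclease gene named after its values were seen, which rose and was lost in 7 alternatives.

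MKI67, the proliferation marker Ki-67, had 27.5, 32.9, 31.4 and 23.3 CPM in the DOX+F libraries, against 34.2, 30.9, 25.7 and 34.1 CPM in the DOX libraries, and CTRL averaged 756 ± 119.8 CPM. The treated arms overlapped (-0.12 ± 0.12, edgeR adjusted p = 0.709). CDKN1A, the p53 target p21, averaged 1449 ± 31.5 CPM in DOX+F and 1507 ± 56.5 CPM in DOX, with 191 ± 10 CPM in CTRL (-0.06 ± 0.042, edgeR adjusted p = 0.581). LMNB1, a nuclear lamina gene that falls in senescence, averaged 7.62 ± 1.2 CPM in DOX+F and 8.13 ± 1.28 CPM in DOX, with 180.2 ± 5.4 CPM in CTRL (-0.09 ± 0.11, edgeR adjusted p = 0.797). A p that misses the threshold does not show that these genes are equal in both arms.

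Of 19 markers of retinal pigment epithelium, 11 were tested. Of these 3 rose (27.3%, against 2.36% of all genes) and 0 fell. All 11 had a log2 fold change above 0, with a median of 0.10. Of the 7 untested members in the table, TYR, TYRP1, DCT, TTR, RLBP1 and LRAT reached no more than 7 counts in a library, and ABCA4 reached 21. PAX6, OTX2, KRT8, KRT18, RDH5 and MITF were present, so the line holds only part of the marker set. RDH5, a retinol dehydrogenase, and EZR, ezrin of the apical membrane, rose in DOX+F (0.36 ± 0.070, edgeR adjusted p = 0.00283, and 0.22 ± 0.044, edgeR adjusted p = 0.00416), and MITF was lost in 8 alternatives. Of 19 immune markers 2 were tested, of 14 endothelial markers 7, and 0 of these were called, beside 5.64% of all genes. Their summed levels were 76.6 to 88.3 CPM in DOX+F, 70.7 to 78.9 CPM in DOX and 63.1 to 73.3 CPM in CTRL for the immune list (mostly CD68, a lysosomal protein of macrophages that other cells also make). For the endothelial list they were 15.1 to 17.2 CPM in DOX+F, 13.9 to 15.7 CPM in DOX and 9.98 to 14.2 CPM in CTRL. Of 6 tested fibroblast markers 1 rose, PDGFRB (0.37 ± 0.052), and 1 fell, PDGFRA, which was lost in 10 alternatives. Of 5 tested neuronal markers 1 rose, TUBB3 (0.29 ± 0.053), and 1 fell, SYT1 (-0.34 ± 0.074). These 4 genes were named after their values were seen. In each direction they are 16.7% of the tested fibroblast markers and 20% of the tested neuronal markers. Over all genes, 2.36% rose and 3.28% fell. Summed over the list, fibroblast markers were at 783 to 819 CPM in DOX+F, 831 to 852 CPM in DOX and 558 to 583 CPM in CTRL. Neuronal markers were at 652 to 700 CPM in DOX+F, 562 to 591 CPM in DOX and 472 to 529 CPM in CTRL. The part of these markers in the results was not tested.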

How the data were processed

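The library kit keeps no strand, so reads of a gene and of an antisense partner cannot be told apart. The table deposited by the authors holds counts per gene, whole and not normalized. Salmon, DESeq2 and GRCh38 appear in the submitters' processing notes without versions or roles, and how estimates became whole counts is not given in the sources used here, so length adjustment before deposit is unknown. Column names give a group and a number, 0 of them without a group, and which sample title each belongs to was not used.

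Counts of identifiers sharing a gene name were summed (618 names; 1935 of 22498 identifiers had no name), giving 21599 rows, of which 8259 were left out for low counts (filterByExpr, minimum count 10, minimum total 15). One edgeR 4.0.16 quasi-likelihood model of all 12 libraries (R 4.3.3, TMM, a mean per group) gave two-sided p-values adjusted by Benjamini-Hochberg over 13340 genes, called below 0.05, and glmTreat tested against 1.2-fold. The standard error is the absolute log2 fold change over the square root of F. The steps were tested on simulated data. Alternatives, 22 in all, used limma 3.58.1, DESeq2 1.42.0 and others, described under the dependence on the processing. GENCODE 29 matched 92.6% of identifiers.

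Named genes were the 15 largest rises and falls among called genes of at least 2 CPM whose arms did not overlap, the 10 smallest p-values in each direction, up to 5 members of each list with at least 3 calls, and 22 anchor genes. Other genes, such as ARNT2, FOXQ1, CYP1A1, BHLHE40, PAX6, OTX2 and CD68, were named after their values were seen. The members and the gene lists, written from general knowledge, were chosen with earlier results of these data known. Same-numbered libraries did not deviate together (residual r of -0.104 to 0.0976 in 12 pairs), and no libraries held the same counts within sampling noise: the chi-square statistic of any pair, divided by its degrees of freedom, was at least 2.39.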

Additional observations from a re-analysis of the deposited data

Results flagged for a closer look

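Among 61 genes, 183 groups of 4 libraries were checked for 1 library far from the others of its group, and 11 were found. Chance finds about 1 in 20 groups.

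In DOX+F, replicate 4 was high for TMEM156 (1.95 CPM, against 1.28 to 1.33 in the others) and for RPL23AP42 (149 CPM, against 139 in the others). Replicate 3 was high for F2R, at 122 CPM against 108 to 110.5 in the others, and low for VSTM2L, at 4.46 CPM against 5.00 to 5.09. In DOX, replicate 2 was low for MUSK, at 2.94 CPM against 3.27 to 3.33, and replicate 4 was high for ITGB2, at 1.61 CPM against 1.23 to 1.30. None of these libraries reached the other arm's values, as the naming rule required for these genes.

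In CTRL, replicate 3 was low for CCL2 (5.83 CPM, against 6.88 to 7.05), and replicate 2 was low for HMGB1P5 (13.9 CPM, against 17.1 to 17.5) and high for LTBP1 (154 CPM, against 149 in the others). Replicate 1 was low for S100A10 (73.1 CPM, against 86.3 to 88.2) and high for AHR (159 CPM, against 137 to 139).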

How the results depend on the processing

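Of 130 named genes called, 102 kept the call in all 22 alternatives and 28 lost it in some, with 0 changes of sign, and 430 of all 753 calls were kept in every one (166 rises and 264 falls). The count of genes called higher, 315, was 206 to 411 when 1 library was left out, lowest without DOX replicate 2 (206) and highest without CTRL replicate 1 (411). All genes called ranged from 529 (without DOX replicate 2) to 915 (without CTRL replicate 1). Other settings gave 634 to 860 calls, 743 with DESeq2 size factors, 767 with library totals alone, 859 with no filter, 860 with DESeq2 and 748 with limma-voom. Rises were 41.8% of calls, between 38.9% without DOX replicate 2 and 48.3% with no filter, and 39.4% with library totals alone.

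The replicate block, which used the column number, gave 634 calls, 617 of them shared, and 145 past 1.2-fold, where 159 passed without it. The labels do not pair the libraries, and same-numbered ones did not deviate together.

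Among uncalled genes, ACSL4 was 0.02 on the log2 scale and ran from -0.02 (-0.0177 without DOX replicate 4) to 0.05 (0.0483 without DOX+F replicate 2) when 1 library was left out, also turning negative without DOX+F replicate 3 (-0.0132) or 4. LMNB1 was -0.09 and ran from -0.18 (without DOX replicate 3) to 0.02 (0.0161 without DOX replicate 2). The cause was not tested. Genes below 1 CPM were rarely called, and changes there were largely beyond this depth.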
